A study of Mus musculus with 6 samples.

Results

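The STAR proteins (signal transduction and activation of RNA) are RNA-binding proteins built around a single KH domain, and 5 genes of this family were followed here: Qk, the gene targeted for knockdown, and its relatives Khdrbs1, Khdrbs2, Khdrbs3 and Sf1. The members are the rows with these symbols, 5 of the 23038 genes in the files. RNA was measured in mOPCs, which are mouse primary oligodendrocyte precursor cells, the glial precursors of the myelinating oligodendrocytes. The cells were purified from mouse embryos by immunopanning. The siNC group (3 libraries) received control siRNAs and the siQk group (3 libraries) received siRNAs targeting Qk, and all cells were collected 72 h later. The labels name no genotype or strain and no treatment other than the siRNA. The siQk group was made with several siRNAs of different sequence, and which one each library received is not given in the sources used here, so that an effect of a single siRNA on another transcript cannot be told apart from an effect of the Qk knockdown (KD). The labels call the 3 libraries of each group biological replicates. They do not say whether these came from separate animals, so that a p-value covers the spread between these libraries only.

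Most STAR proteins bind RNA as a KH domain flanked by QUA segments and pair into dimers that read a bipartite site. Qk encodes the Qki isoforms, which bind the core ACUAAY (Y is C or U) beside a UAAY half-site and control splicing, export, stability and translation of glial transcripts. Quaking mutations in mice lead to a lack of myelin. Khdrbs1 (Sam68), Khdrbs2 (SLM1) and Khdrbs3 (SLM2, also T-STAR) bind UAAA-type sequences, control alternative splicing and respond to kinases. Khdrbs2 and Khdrbs3 are best known from neurons. Sf1 recognises the intron branch site, whose textbook form UACUAAC contains the Qki core, early in spliceosome assembly.

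The KH-coding stretch in which the 5 members are most alike is shown because it codes for part of the domain that defines the family. Single pairs of members can have closer stretches elsewhere. It was taken from GENCODE M21 transcripts (GRCm38, the same assembly as mm10), is 75 bases long, which is 1 read length, and is written 5′ to 3′. Capitals mark the 31 positions at which all 5 members are identical.
Qk: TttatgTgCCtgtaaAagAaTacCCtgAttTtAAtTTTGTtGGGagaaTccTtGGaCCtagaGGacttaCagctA
Khdrbs1: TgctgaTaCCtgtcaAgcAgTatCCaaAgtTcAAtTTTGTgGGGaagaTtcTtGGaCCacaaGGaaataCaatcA
Khdrbs2: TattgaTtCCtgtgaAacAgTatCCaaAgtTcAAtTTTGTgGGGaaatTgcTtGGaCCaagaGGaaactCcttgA
Khdrbs3: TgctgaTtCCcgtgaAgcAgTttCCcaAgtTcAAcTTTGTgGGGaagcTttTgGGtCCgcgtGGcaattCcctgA
Sf1: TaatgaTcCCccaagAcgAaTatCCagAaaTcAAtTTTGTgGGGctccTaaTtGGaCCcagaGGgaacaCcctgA

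In all 5 genes the stretch is coding and crosses 1 exon junction. The junction falls after base 29 of the stretch in Qk and in the 3 Khdrbs genes, and after base 61 in Sf1. The 3 Khdrbs genes were closest to each other in it, with 80.0% identity between Khdrbs1 and Khdrbs2, 76.0% between Khdrbs1 and Khdrbs3 and 74.7% between Khdrbs2 and Khdrbs3. Qk shared 65.3% of the bases with Khdrbs2, 64.0% with Khdrbs1, 57.3% with Sf1 and 50.7% with Khdrbs3. Over the whole coding sequences the closest pair of 75-base windows, in Khdrbs2 and Khdrbs3, still differed at 11 bases. No 75-base word of any member's annotated transcripts occurred in a transcript of another gene, so that a full-length exact match to a member fits no other annotated transcript.

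The genes lie apart from each other in the genome (GRCm38, GENCODE M21). Qk (Entrez 19317) spans chr17:10202601-10319854 on the minus strand and Khdrbs1 (Entrez 20218) chr4:129703164-129742303 on the minus strand. On the plus strand, Khdrbs2 (Entrez 170771) spans chr1:32172714-32658568, Khdrbs3 (Entrez 13992) chr15:68928420-69101211 and Sf1 (Entrez 22668) chr19:6363690-6378030. Of these, Sf1 alone shares exon bases with another annotated gene, the antisense gene Gm14966, over 70 of 6211 bases. The library kit does not mark strand, so that reads in those bases cannot be assigned to either gene.

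Qki core motifs in the 3'UTRs of the members are shown because they mark where the targeted protein could meet the transcripts of its own family. ACUAAC and ACUAAU were searched on the RNA strand, in each gene's longest 3'UTR of the annotation. The Qk 3'UTR of 7014 nt held 5, that of Khdrbs2 (4526 nt) held 2 and that of Sf1 (2035 nt) held 1. Those of Khdrbs1 (2270 nt) and Khdrbs3 (520 nt) held 0. The Khdrbs2 3'UTR searched belongs to a transcript with 579 coding bases. The Khdrbs2 transcript used for the KH stretch has 1047 coding bases and a 3'UTR of 1027 nt with 1 core. Another coding Khdrbs2 transcript has 3 cores on 2794 nt. Of the 8 sites in the longest 3'UTRs, 7 follow with 30 bases each and the core in capitals. A UAAC or UAAU half-site within 20 nt that does not overlap the core is also in capitals where present.
Qk, 3060 nt after the stop codon, chr17:10206544-10206573, minus strand: auguuaUAAUaccaaccuACUAACucugga
Qk, 3143 nt, chr17:10206455-10206484, minus strand: uugaguuccuggACUAACacugaagaacgu
Qk, 5301 nt, chr17:10204297-10204326, minus strand: uguuucugcugcACUAAUugccaggggugg
Qk, 5335 nt, chr17:10204263-10204292, minus strand: ggaggagcagcaACUAAUccaugguaggca
Khdrbs2, 3033 nt, chr1:32336849-32336878, plus strand: agucuagugggaACUAAUgugugugugugu
Khdrbs2, 3674 nt, chr1:32337490-32337519, plus strand: cacacaucaaucACUAAUcaagaaaauguu
Sf1, 1510 nt, chr19:6377493-6377522, plus strand: aaggucacgcuaACUAAUccugcuugucgg

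The first Qk site is the only one of the 8 with such a half-site, 8 nt before the core, and its core reads UACUAAC with the base before it. The Sf1 site holds a UAAC that overlaps the start of its core, which was not counted. Length sets much of this count. Among 271 annotated 3'UTRs at least as long as that of Qk, 91.9% held a core within the same length, and 19.2% held as many as Qk. The corresponding shares with at least 1 core were 78.2% for the length of Khdrbs2, 53.3% for Khdrbs1, 49.6% for Sf1 and 15.4% for Khdrbs3. The RefSeq span of Qk ends before the GENCODE one, at position 10206471, and leaves 4 of the 5 Qk windows wholly or partly outside. A match is a match of letters only: binding was not measured, and the values below are per gene, so that they do not tell which 3'UTR was present.

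**Figure D1:**
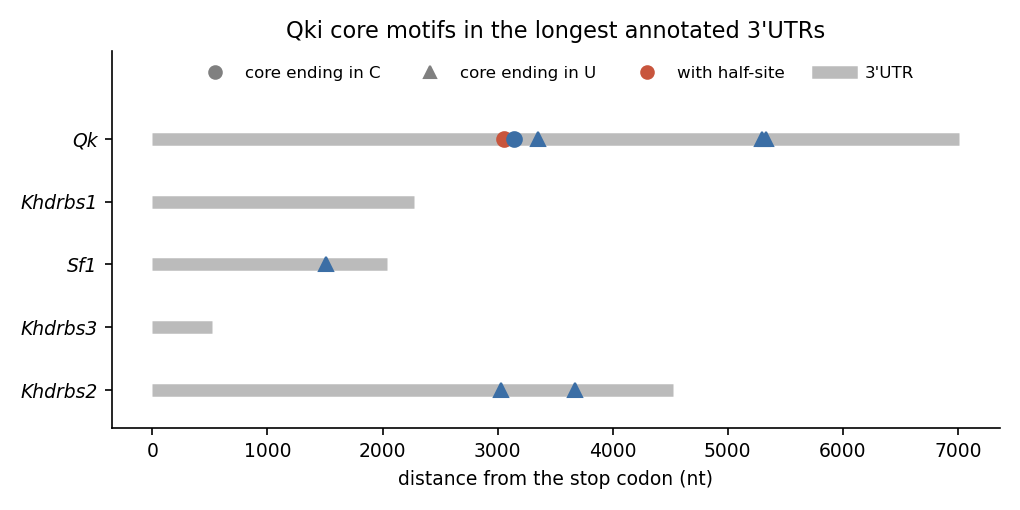
Positions of ACUAAC (circles) and ACUAAU (triangles) in the longest annotated 3'UTR of each STAR gene, with the distance from the stop codon in nt on the horizontal axis and gray bars for the 3'UTR. Qk has 5 cores on 7014 nt, of which 1, in red, has a half-site within 20 nt, while Khdrbs1 and Khdrbs3 have 0.

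The files hold 58166490 to 141045937 tags per library. siNC 1 was the shallowest library and the one with the most reads on the ribosomal repeat Rn45s, 3.11% of its tags against 0.169% to 0.389% in the others. The RPKM, the tags of a gene scaled by its exon length and by the library total, was used to set genes side by side. Defining OPC markers were present in both groups, with Pdgfra at 71.1 to 118 RPKM, Sox10 at 141 to 184 RPKM and a summed RPKM over 10 markers of 1057 to 1133 in siNC and 1283 to 1445 in siQk. Of these 10 genes 4 were called higher in siQk, Cspg4, Olig1, Olig2 and Nkx2-2, and Lhfpl3 was called lower, by the rule that called 31.0% of all tested genes (given in full below). The summed RPKM of 10 mature oligodendrocyte markers was 3307 to 5825 in siNC and 1363 to 2065 in siQk, and 8 of 9 tested were called lower. The 8 astrocyte markers had overlapping sums (289 to 410 in siNC and 284 to 307 in siQk), most of which came from S100b and Aldoc, which were not called. Of the 7 tested astrocyte markers 4 were nevertheless called lower, Gfap (log2 fold change of -2.95), Aldh1l1 (-2.21), Slc1a3 (-1.38) and Slc1a2 (-1.06), and the list median was -1.06. The sums of 8 neuronal markers also overlapped (102 to 172 in siNC and 81.9 to 121 in siQk) and were mostly Tubb3, which was not called. Among the 6 tested neuronal markers Snap25 (2.64) and Nefl (1.61) were called higher, at means of 5.18 and 6.36 RPKM in siQk against 0.751 and 1.88 in siNC. Syt1 (0.87), Gad1 (0.45), Tubb3 (-0.57) and Rbfox3 (-0.57) were not called. Stmn2 was at 0.0439 RPKM or less and Slc17a6 at 0. The 6 microglial markers summed to 0.721 to 3.32 RPKM in siNC and 0.308 to 0.407 in siQk, with P2ry12, the one tested, called lower (-3.16). The 10 fibroblast and vascular markers summed to 2.90 to 5.19 and 4.03 to 5.23 RPKM, and Kdr, the one tested, was not called. Such bulk values cannot tell fewer cells of a type from less RNA per cell, and the part of cell make-up in the differences below was not tested.

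Qk was the most abundant STAR transcript of control mOPCs. It stood at 209, 206 and 163 RPKM in siNC 1, 2 and 3 and at 51.3, 76.6 and 36.2 RPKM in siQk 1, 2 and 3. The groups did not overlap, and siQk 2 kept the most Qk transcript and siQk 3 the least. The mean went from 193 ± 25.9 to 54.7 ± 20.4 RPKM (SD, n = 3 each), which left 28.4% of the control level. Qk fell by 1.98 on the log2 scale (SE 0.28, adjusted p = 0.00311, edgeR quasi-likelihood test). This is the check of the targeted gene and it matches the labels. In absolute size the change was larger than that of 98.9% of the 12505 tested genes, and 108 of these had a lower log2 fold change than Qk. By RPKM rank among all 23038 genes, Qk went from place 179 to 303 in the siNC libraries to place 900 to 2344 in the siQk libraries.

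Khdrbs1, the Src substrate Sam68, was higher after Qk KD in every library. It stood at 44.3, 47.9 and 45.4 RPKM in siNC 1, 2 and 3 and at 67.1, 65.4 and 61.5 RPKM in siQk 1, 2 and 3. The groups were narrow and did not overlap, with means of 45.9 ± 1.86 and 64.7 ± 2.87 RPKM (SD, n = 3 each). Khdrbs1 rose by 0.34 on the log2 scale (SE 0.065, adjusted p = 0.00820, edgeR quasi-likelihood test), a 1.27-fold change. Such a size was ordinary in this comparison, since 62.7% of the tested genes changed less in absolute terms and the median absolute log2 fold change of all called genes was 0.59.

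Sf1, the branch site binding protein, was also higher in every siQk library. It stood at 34.7, 36.8 and 38.8 RPKM in siNC 1, 2 and 3 and at 48.9, 51.6 and 47.7 RPKM in siQk 1, 2 and 3. No siNC library reached the lowest siQk library, and the means were 36.8 ± 2.06 and 49.4 ± 2.02 RPKM (SD, n = 3 each). Sf1 rose by 0.27 on the log2 scale (SE 0.055, adjusted p = 0.0104, edgeR quasi-likelihood test), a 1.21-fold change, and 53.4% of tested genes changed less. With the replicate number as a block the Sf1 call was lost, since its P then exceeded 0.01 (adjusted p = 0.0495, edgeR quasi-likelihood test), with the same fold change of 0.27.

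Khdrbs2, the SLM1 gene, was the least abundant member. It stood at 1.11, 1.76 and 1.40 RPKM in siNC 1, 2 and 3 and at 2.20, 2.41 and 2.12 RPKM in siQk 1, 2 and 3. The groups did not overlap, and the spread lay mainly among the siNC libraries (1.42 ± 0.325 RPKM, SD, n = 3, against 2.24 ± 0.146 in siQk). The log2 difference was 0.51 (SE 0.15), the largest of the members above 0. It was not called, because its P of 0.0120 by edgeR missed the limit of 0.01 while its adjusted p of 0.0366 was below 0.1. Without siNC 2, the siNC library with the most Khdrbs2, it was called at a log2 fold change of 0.68, and leaving out that library raises the difference by itself. With any other single library left out Khdrbs2 was not called, at log2 fold changes of 0.39 to 0.54. The depth did not leave this gene near 0: Khdrbs2 had 579 to 2781 tags per library.

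Khdrbs3, the SLM2 gene, was the one member whose groups overlapped. It stood at 24.1, 27.7 and 31.9 RPKM in siNC 1, 2 and 3 and at 27.0, 31.9 and 26.6 RPKM in siQk 1, 2 and 3. The means of 27.9 ± 3.88 and 28.5 ± 2.97 RPKM (SD, n = 3 each) differed by less than the spread within either group. The log2 difference was -0.12 (SE 0.097, adjusted p = 0.363, edgeR quasi-likelihood test), and its sign turned to 0.028 when the libraries were scaled by their totals alone.

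**Figure D2:**
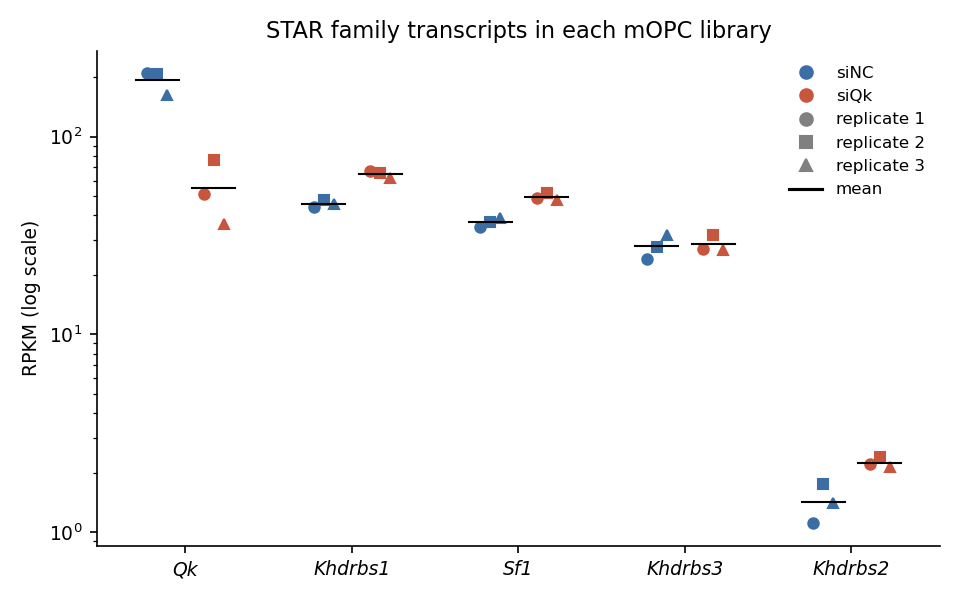
RPKM of the 5 STAR genes in each library on a log axis, with siNC in blue, siQk in red, a symbol for each replicate number and a bar for the mean of 3 libraries. Qk lies at 163 to 209 RPKM in siNC and 36.2 to 76.6 in siQk, Khdrbs1, Sf1 and Khdrbs2 lie higher in every siQk library than in any siNC library, and Khdrbs3 overlaps.

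Altogether 3 of the 5 members were called, which required P under 0.01 together with an FDR under 0.1, and of these 1, the targeted gene, was lower and 2 were higher in siQk. Over all 12505 tested genes the same rule called 31.0%, with 13.8% higher and 17.2% lower. Leaving aside the targeted gene, 2 of 4 relatives were called, a count that 4 genes are too few to tell from this background. RPKM ranges did not overlap for 4 of the 5 members, against 58.3% of all tested genes, so that separation of the ranges was also common. RPKM values also carry a shift between the groups: with libraries scaled by their totals alone the median over all tested genes was a log2 fold change of 0.16, against 0.010 with TMM scaling. For this reason the fold changes are given with TMM scaling. Rescaled by the TMM factors, the means were 48.4 ± 2.05 and 61.4 ± 2.45 RPKM for Khdrbs1 and 38.8 ± 0.563 and 46.9 ± 1.42 RPKM for Sf1 (SD, n = 3 each). The groups of both genes stayed apart on this scale. The exact permutation test of 3 libraries against 3 gave p = 0.1 (two-sided) for the RPKM of Qk, Khdrbs1, Khdrbs2 and Sf1 and p = 0.9 for Khdrbs3, and 0.1 is the smallest p this design allows.

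**Figure D3:**
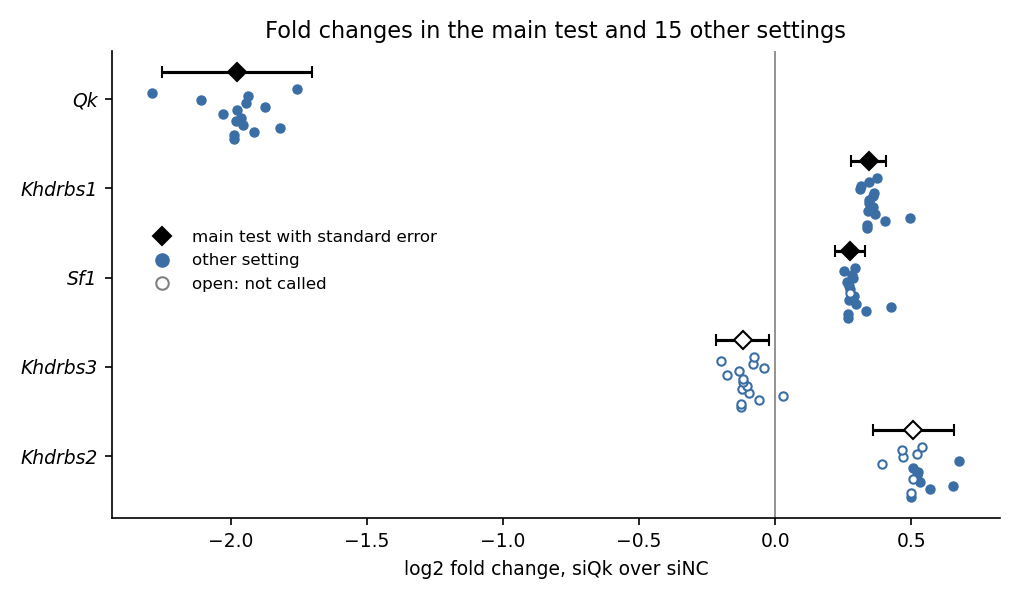
Log2 fold change of each STAR gene, siQk over siNC, in the main edgeR test (diamonds with the standard error) and in 15 other settings (circles), where filled symbols passed the cutoffs and open ones did not. Qk and Khdrbs1 are filled in all settings, Sf1 is open in 1, Khdrbs2 is filled in 8 of the 15 other settings, and Khdrbs3 is open throughout and lies on both sides of 0.

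The order of the members by RPKM changed with the KD. In all 3 siNC libraries it was Qk, Khdrbs1, Sf1, Khdrbs3 and Khdrbs2. The same order held in siQk 2, the library with the most Qk left. In siQk 1, Khdrbs1 stood above Qk, and in siQk 3 both Khdrbs1 and Sf1 stood above Qk. In the siNC libraries neighbours in the order were separated, Khdrbs1 at 44.3 RPKM or more from Sf1 at 38.8 or less, and Sf1 at 34.7 or more from Khdrbs3 at 31.9 or less. In siQk the ranges of Qk and Khdrbs1 overlapped, as did those of Qk and Sf1. RPKM uses 1 exon length per gene, 9878 bases for Qk, while annotated coding Qk transcripts have 5428 to 8547 bases. Close places in this order, and the sums and shares below, therefore depend on the length used for each gene.

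The pool of STAR transcripts became smaller and less dominated by Qk. The summed RPKM of the 5 genes was 313, 321 and 281 in siNC 1, 2 and 3 and 197, 228 and 174 in siQk 1, 2 and 3, which left 65.5% of the control mean. Qk made up 66.7%, 64.4% and 58.1% of this sum in the siNC libraries and 26.1%, 33.6% and 20.8% in the siQk libraries. Its mean share thus went from 63.1% ± 4.46 to 26.8% ± 6.44 (SD, n = 3 each), with no overlap. In the siQk libraries Khdrbs1 had the largest mean share, 32.7% against 15.1% in siNC, and Sf1 had 25.0% against 12.1%. Khdrbs3 had 14.3% against 9.24% and Khdrbs2 1.13% against 0.467%. These shares are parts of 1 sum, so that a smaller share of Qk raises the others by itself.

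Without Qk, the other 4 members summed to 104, 114 and 118 RPKM in siNC 1, 2 and 3 and to 145, 151 and 138 RPKM in siQk 1, 2 and 3. The groups did not overlap, and the means of 112 ± 6.91 and 145 ± 6.73 RPKM (SD, n = 3 each) differed by 32.8 RPKM (exact permutation test, two-sided, p = 0.1). The difference was 19.5 RPKM after rescaling by the TMM factors, with means of 118 ± 1.71 and 137 ± 4.98, and 20.2 RPKM without Sf1. For comparison the mean of Qk itself was lower by 138 RPKM in siQk. The share of Khdrbs3 in this remainder was lower in siQk, at 19.6% ± 1.30 against 24.9% ± 2.05 (SD, n = 3 each, no overlap). Those of Khdrbs1 (44.7% against 41.0%) and Sf1 (34.1% against 32.9%) were higher, also without overlap, and that of Khdrbs2 overlapped. These shares too are parts of 1 sum, and the mean of Khdrbs3 itself was 28.5 RPKM in siQk against 27.9 in siNC.

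**Figure D4:**
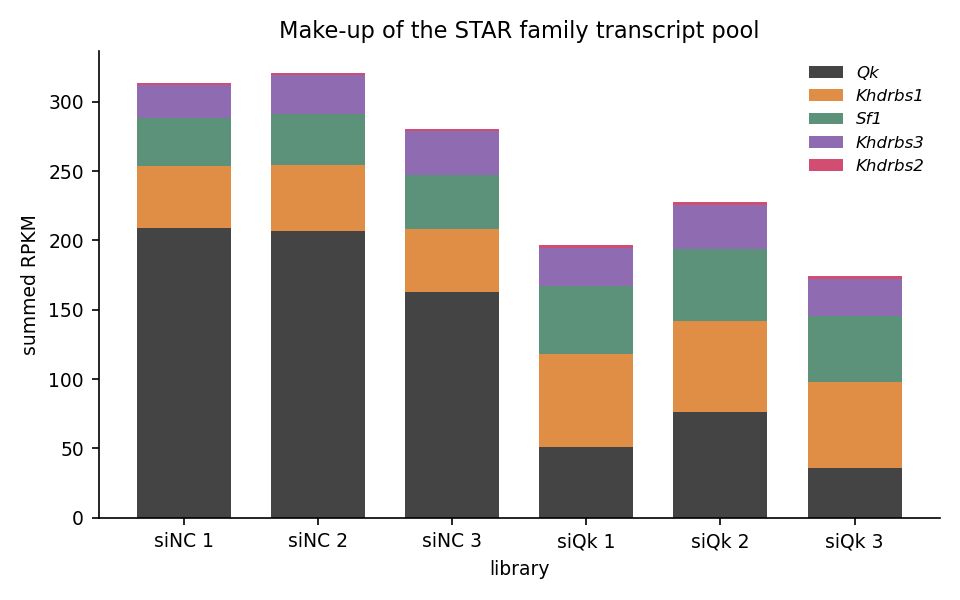
Summed RPKM of the 5 STAR genes in each library, stacked by gene from 0. The bars reach 281 to 321 in siNC and 174 to 228 in siQk, and Qk takes 58.1% to 66.7% of the bar in siNC and 20.8% to 33.6% in siQk.

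A ratio of 2 members within a library does not depend on how the libraries are scaled, and shows whether their proportion differed. The log2 ratio of Khdrbs1 to Sf1 was 0.35, 0.38 and 0.22 in siNC 1, 2 and 3 and 0.46, 0.34 and 0.37 in siQk 1, 2 and 3. These groups overlapped, with a difference of 0.07 in the mean (exact permutation p = 0.5, adjusted p = 0.5 over the 10 pairs). For Khdrbs1 and Khdrbs3 the log2 ratio was 0.88, 0.79 and 0.51 in the siNC libraries and 1.32, 1.04 and 1.21 in the siQk libraries. The mean of this ratio rose from 0.73 ± 0.19 to 1.19 ± 0.14 (SD, n = 3 each), without overlap. The ratio of Khdrbs3 to Sf1 was lower by 0.39 and that of Khdrbs2 to Khdrbs3 higher by 0.65 in siQk, also without overlap. Each of these 3 ratios had an exact permutation p of 0.1, the smallest possible, and an adjusted p of 0.143 over the 10 pairs, so that they do not pass a threshold of 0.05. The ratio of Khdrbs2 to Khdrbs1 or to Sf1 overlapped between the groups (exact permutation p = 0.4, adjusted p = 0.444). All 3 hold Khdrbs3, so that they are not separate observations. In every siQk library there was less Khdrbs3 per Khdrbs1, Khdrbs2 or Sf1 transcript than in any siNC library. The other 3 relatives kept overlapping ratios to each other. How often ratios of other genes separate was not counted, and the RPKM ranges of 58.3% of all tested genes did not overlap.

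Other KH domain genes, which encode RNA-binding proteins with the same fold outside the STAR family, were described beside the members. Of 31 listed genes 29 were tested, and 8 were called, 4 higher and 4 lower, with a median log2 fold change of 0.14. Fubp3, a FUSE-binding protein relative, fell from 53.8 ± 0.77 to 29.1 ± 3.01 RPKM, a log2 fold change of -1.04. Igf2bp2 and Mex3c also fell (log2 fold changes of -0.57 and -0.56). Nova1, a splicing regulator of neurons, rose from 14.1 ± 4.45 to 28.7 ± 1.90 RPKM, a log2 fold change of 0.88, and Mex3a (0.56) and Akap1 (0.39) rose as well. The share of 8 in 29 lies near the 31.0% of all tested genes. The calls for Nova1 and Igf2bp2 were each lost in 3 of the 15 other settings and that for Akap1 in 2.

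The partners of Sf1 in branch site recognition are the U2AF heterodimer and the SF3A and SF3B complexes of the U2 snRNP. All 22 listed genes were tested, and 8 were called, 6 higher and 2 lower, with a median log2 fold change of 0.14, beside 31.0% called, 13.8% higher and 17.2% lower, over all tested genes. Sf3b3, a large SF3B subunit, rose from 28.3 ± 1.10 to 53.6 ± 0.707 RPKM, a log2 fold change of 0.77. The 3 SF3A subunits Sf3a1 (0.41), Sf3a3 (0.38) and Sf3a2 (0.31) also rose. The other listed genes with an Sf3b symbol, Sf3b1 (0.12), Sf3b2 (0.13), Sf3b4 (0.058), Sf3b5 (0.099) and Sf3b6 (-0.057), were not called, nor was Phf5a (0.21). U2af1 and U2af2, which bind the 3' splice site next to Sf1, had log2 fold changes of 0.23 and 0.043 and were not called. Uhmk1, a kinase that phosphorylates Sf1, fell from 35.7 ± 3.89 to 26.7 ± 2.62 RPKM, a log2 fold change of -0.57. Zrsr1, a U2af1 relative, fell by 0.84 on the log2 scale. Its close relative Zrsr2 had a log2 fold change of 0.18 and was not called. Whether the authors' counting divided reads between these copies was not tested. This list had 5 calls in place of 8 without siQk 1, without siQk 2 or with the replicate block.

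The kinases and partners of STAR proteins, mostly of Khdrbs1, gave 8 calls among 20 tested of 21 listed genes, 6 higher and 2 lower, with a median log2 fold change of 0.19. The same shares of all tested genes, 31.0% called, 13.8% higher and 17.2% lower, stand beside these counts. Nek2 and Cdk1, cell cycle kinases that phosphorylate Sam68, rose most. Nek2 went from 0.972 ± 0.117 to 3.68 ± 1.09 RPKM and Cdk1 from 6.09 ± 0.672 to 17.6 ± 5.58 RPKM, log2 fold changes of 1.77 and 1.38. Pik3r1, a regulatory subunit of PI3 kinase that binds Sam68, rose by 0.76 on the log2 scale, a call lost in 4 of the 15 other settings. Among Src family kinases Yes1 fell from 12.9 ± 1.22 to 6.15 ± 0.0859 RPKM, a log2 fold change of -1.22, while Src itself had a log2 fold change of 0.21 and was not called. Fyn, the Src family kinase of myelinating cells that phosphorylates Qki, stood at 302 ± 88.0 RPKM in siNC and 202 ± 7.31 in siQk (log2 difference of -0.74, not called). Mapk3, the ERK1 kinase, fell by 0.92 on the log2 scale. This list had 5 calls without siQk 1.

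Transcripts documented as targets of Qki or of the Khdrbs proteins gave 9 calls among 19 tested of 20 listed genes, 1 higher and 8 lower. Their median log2 fold change was -0.32 against 0.010 over all tested genes, of which 31.0% were called, 13.8% higher and 17.2% lower. The list was chosen with earlier results of these data known. The lowest were the myelin genes Mag (-2.58) and Mbp (-2.21). Both also stand in the list of mature oligodendrocyte markers, of which 8 of 9 tested were called lower. Mag, a myelin adhesion protein gene, went from 129 ± 64.1 to 24.2 ± 13.7 RPKM. Cd44, Sirt2, Map1b, Daam2 and Sgce also fell. Hnrnpa1, a splicing repressor and Qki target, rose by 0.52 on the log2 scale. Whether its many processed copies in the genome took reads was not tested. The calls for Mbp and Mag were lost in 5 and 3 of the 15 other settings.

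**Figure D5:**
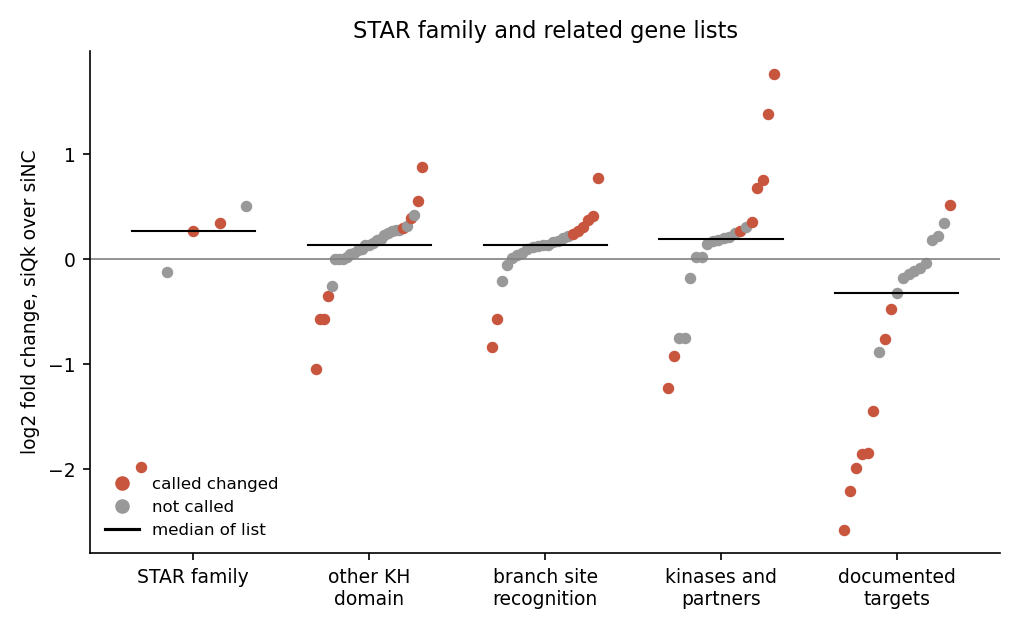
Log2 fold change, siQk over siNC, of the STAR genes and of 4 lists of related genes, with 1 point per tested gene, in red where the gene was called changed, and a bar for the list median. The medians are 0.14 for other KH domain genes and for branch site recognition, 0.19 for kinases and partners and -0.32 for documented targets, of which 15 of 19 lie below 0 and 8 of 19 were called lower.

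The transcripts whose profile over the 6 libraries was most like that of each member were found among 10038 genes with an average logCPM over 3, by the root mean square difference of the centred log2 values. For Qk these were Ptgr2 (0.28), Galc (0.29), Adam11 (0.31), Nxt2 (0.33) and Necap2 (0.34). Galc, which degrades the myelin lipid galactosylceramide, stood at 33.4, 37.4 and 31.7 RPKM in siNC 1, 2 and 3 and at 10.7, 11.9 and 10.2 RPKM in siQk 1, 2 and 3. Profiles near that of Khdrbs1 were much closer, with Fam168b at 0.017, Cxxc1 at 0.020 and Zfp64 at 0.022. The nearest to Sf1 were Zc3h18 (0.014), Snrpc (0.017) and Eral1 (0.018), of which Snrpc encodes a protein of the U1 snRNP. For Khdrbs2 they were Adcy3 (0.046), Arid5b (0.046) and Fnbp1l (0.047), and for Khdrbs3 Ift80 (0.036), Adpgk (0.040) and Palm (0.043). No member was among the nearest of another member. This measure describes 6 libraries, in which a gene that differs little from its mean is near many others.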

How the data were processed

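Polyadenylated RNA of mOPCs was sequenced as 75-nt paired-end reads, which the authors aligned to mm10 with OLego and quantified per gene with Quantas; versions and annotation are not given in the sources used here. The authors deposited an estimated count of tags per gene, not normalized, which can carry decimals, and the RPKM, which recomputing from tags, exon length and library totals returned. Both are per gene, so that isoforms were not analysed here.

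The members and lists were chosen with earlier results of these data known. Counts were rounded and tested with edgeR 4.0.16 (quasi-likelihood, TMM, group as the only term; limma 3.58.1, R 4.3.3) on 12505 genes with an average logCPM over 0. Genes were called at P below 0.01 and Benjamini-Hochberg FDR below 0.1 over all of these. The SE was taken from the log2 fold change and the root of F. The test was checked on simulated data. Libraries of a group differed by more than counting noise and each counted as 1. The chi-square per degree of freedom was 185 to 326 between siNC libraries and 36.3 to 74.0 between siQk libraries. Named genes were the 5 members, up to 3 called genes per direction and list with the most extreme log2 fold changes, and the 3 (for Qk 5) profiles nearest to each member; other list genes were singled out after their values were seen, and a few items are left unreported. DESeq2 1.42.0 was an alternative. Motifs and spans came from GENCODE M21 and cover annotated transcripts only, with 3'UTRs of at least 50 nt.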

Additional observations from a re-analysis of the deposited data

How the results depend on the processing

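Each fold change was recomputed under 15 alternatives. Qk (-2.29 to -1.76) and Khdrbs1 (0.31 to 0.50) kept direction and call in all of them. Khdrbs2 became called with DESeq2 (0.50), upper quartile scaling (0.57), library size only (0.65), no filter on low counts (0.53), filterByExpr (0.52), the replicate block (0.53), an FDR limit of 0.05 alone (0.51) and without siNC 2, and leaving out 1 library each gave 0.39 to 0.68, with adjusted p by edgeR or DESeq2 over all alternatives of 0.00806 to 0.110. Khdrbs3 turned to 0.028 with library size only, as did Adpgk (0.050), Ift80 (0.048) and Palm (0.011), and lay between -0.20 and -0.042 with 1 library left out. Sf1 lost its call with the replicate block (0.27) and lay between 0.25 and 0.29 with 1 library left out. The cause of these moves was not tested, other than that a scale by totals shifts all genes.

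Same-numbered libraries did not deviate together (r of -0.053, -0.15 and -0.34 across genes). With 3 libraries per group, whose other differences can hide a shared part, this cannot tell whether same-numbered libraries came from 1 preparation. With the block 2796 genes were called, against 3879 without it, and the branch site list had 5 calls. Library size only gave 2989 higher and 1365 lower genes, so that 31.4% of calls were lower against 55.4%, and 13 other KH domain genes were called. Upper quartile scaling gave 44.4% lower. The summed RPKM besides Qk differed by 19.5 with TMM rescaling and 20.2 without Sf1. With 1 library left out, the calls over all genes were 2478 (without siQk 1) to 3704 and those higher 1008 (without siQk 1; 1104 without siQk 2) to 1610, other KH domain genes 6 to 10, branch site genes 5 to 8, kinases and partners 5 to 10, documented targets 7 to 10, members 3 to 4, the sum besides Qk 28.9 to 36.3 RPKM and the change of the Qk share -39.6 to -33.2 points. For 37 other named genes, 501 of 555 values kept direction and call, 38 lost the call, 13 gained it and 3 changed sign.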
